A study of Bos taurus with 18 samples.

Results

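The 10 osteoblast genes described here are RUNX2, SP7, DLX5, DLX3, ALPL, PHEX, SPP1, SPARC, IBSP and BGLAP, chosen as a list of gene symbols. All 10 of 10 were found among the 16989 gene symbols counted in bovine mesenchymal stem cells (MSCs), stromal cells of the marrow that can be driven towards bone, fat or cartilage. The MSCs came from the marrow of a juvenile cow. RNA was sequenced from 17 clones, A to Q, each grown from a single cell, and from 1 heterogeneous population that had not been cloned, all from the same donor. All 18 populations were at passage 1 in monolayer on plastic in DMEM with serum and antibiotics, without an osteogenic or chondrogenic stimulus, so the levels are those of undifferentiated cells. Each population gave 1 library, so a clone has no replicate of its own, every test uses the spread between clones of 1 animal, and the heterogeneous population stands as a single library.

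Osteoblasts, the cells that lay down bone, arise from marrow stromal cells through a known order of gene activity. RUNX2 is the transcription factor required to enter the lineage, SP7 (osterix) acts downstream of it, and the homeobox factors DLX5 and DLX3 also act on bone genes. ALPL, the tissue-nonspecific alkaline phosphatase, removes pyrophosphate so that mineral can form, and PHEX is a membrane peptidase of osteoblasts and osteocytes that takes part in phosphate balance. SPP1 (osteopontin), SPARC (osteonectin), IBSP (bone sialoprotein) and BGLAP (osteocalcin) are secreted matrix proteins, of which IBSP and BGLAP are usual markers of mature, mineralizing cells.

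Between 11484812 and 18458157 reads fell on genes in a clone, with a median of 14193790, and 16092501 in the heterogeneous population. Levels are given as CPM, the reads of a gene scaled to a total of 1000000 on all genes, with exact Poisson 95% limits where an interval is printed, and such limits cover counting error only. At these depths 3 reads, the one-sided 95% limit that a count of 0 allows, were worth 0.163 to 0.261 CPM. The printed and drawn limits are two-sided and wider, with 0.264 CPM for 0 ALPL reads in clone L. Gene lengths were not used, so a level is compared between libraries and never between genes. In bulk RNA, fewer cells of a kind and less RNA per cell cannot be told apart. The libraries of clones C and O were the most alike of all pairs, with a chi-square of 4.90 per gene, against 22.3 for the next pair, E and F, and 355 for M and N. They differed by more than counting noise and were kept as separate clones, and the slopes and correlations are also given without them. Of 12 mesenchymal stromal markers, 11 had a median above 1 CPM over the clones, led by vimentin (VIM) at a median of 12093 CPM and the integrin subunit ITGB1 at 2217 CPM. VCAM1, the exception, had a median of 0.066 CPM. The share of all genes with a median above 1 CPM was not computed.

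RUNX2 was present in every clone, over a 2.6-fold range. It ranged from 64.1 CPM in clone Q to 163.8 CPM in clone O, with a median of 100.8 CPM and a mean of 105 ± 27.1 CPM (SD, n = 17). Clones O, C, E and F lay highest and clones H, N, P and Q lowest. Its SD on the log2(CPM + 0.25) scale was 0.36, close to the median of 0.35 over the 11477 genes that exceeded 1 CPM in any clone. Counting error alone would give 0.038. In the order of levels, 3 of the 16 steps between neighbouring clones were wide enough for the 95% limits not to overlap. RUNX2 therefore varied about as much as the median gene of all levels. Among 1259 genes of similar mean level, its SD was higher than in 70.0%.

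SP7 spread much further. It fell to 5.74 CPM (79 reads) in clone N and reached 75.3 CPM (1166 reads) in clone E, a 13.1-fold range around a median of 26.3 CPM. Clones E, M, O, C and A lay at 47.9 CPM or above. Clones H, P, L, Q and N lay at 12.5, 9.30, 7.15, 6.20 and 5.74 CPM, and the same 5 clones held the 5 lowest RUNX2 levels. The SD of SP7 was 1.17 on the log2 scale, higher than in 95.7% of the 11477 genes. Over those genes, 6.95% had an SD above 1.

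DLX5 was measured by 29 to 172 reads. Its levels ran from 2.0 CPM in clone Q to 11.8 CPM in clone A, with a median of 5.94 CPM and an SD of 0.75 on the log2 scale. Clones A, I and K were highest and clones D, P, N and Q lowest, at 2.96 CPM or below, but no 2 neighbours in the order had limits that did not overlap. DLX3, by contrast, was set apart by 2 clones. Clone L held 39.0 CPM (545 reads) and clone N 30.8 CPM (424 reads), while the next clone, H, held 13.1 CPM and the lowest, E, 1.68 CPM. The median was 5.06 CPM and the SD 1.24, above that of 96.5% of genes. Clone E, with the highest SP7 level, had the lowest DLX3 level, and clones L and N had low SP7 and high DLX3.

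ALPL was nearly silent in most clones and split them into separate groups. Clones M, O and C held 12.2 CPM (225 reads, limits 10.7 to 13.9), 11.9 CPM (187 reads) and 11.8 CPM (167 reads). The next clone, G, held 2.01 CPM (27 reads, limits 1.32 to 2.92), and the other 14 clones ran from there down to clone L, with 0 of its reads on ALPL. The gap between clones C and G was 2.42 on the log2 scale, and it was the only one of the 16 steps at which limits did not overlap. The SD of 1.80 was above that of 99.5% of genes. Clones M, O and C were also among the 4 clones with the highest SP7 and the 4 with the highest IBSP, but they parted in other genes. SPARC was highest of the clones in M, at 35045 CPM, and below its median of 19188 CPM in C and O, at 14330 and 13977 CPM. RUNX2 was near its median in M, at 102.9 CPM, and highest of the 17 clones in O and C. The 12 cell cycle genes summed to 112 CPM in M, the lowest of the clones, and to 2339 and 2029 CPM in O and C. Whether the likeness of O and C as whole libraries has a part in their shared ALPL level was not tested.

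PHEX was low throughout, at 1 to 36 reads, and the highest clones were others. Clone N held 2.61 CPM (36 reads), P 1.96 CPM (34 reads), H 1.94 CPM (31 reads) and Q 1.65 CPM (24 reads), against a median of 0.363 CPM and 0.065 CPM (1 read) in clone E. These 4 clones are among the 5 with the lowest SP7. The fifth, L, had 0.501 CPM. Clones N, P and Q also carried MGP, the matrix Gla protein that inhibits mineral formation, at 409.7, 389.8 and 651 CPM, whereas clone H had 2.44 CPM and the median clone 5.76 CPM. Of the chondrocyte markers, 12 of 14 were counted, and their sum was 6350, 5666 and 8693 CPM in N, P and Q, 2202 CPM in H, and 2043 CPM in L, where it was lowest. The sums are weighted to the genes with most reads. COL11A1 alone made up 6884 CPM in Q and 1682 CPM in L, and ACAN 3032 CPM in N. Clones C and O, with low PHEX, had sums of 6186 and 6822 CPM. The part of these markers in the PHEX levels was not tested.

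Of the matrix genes, SPP1 and SPARC were deeply covered in every clone. SPP1 ran from 243 CPM in clone D (2796 reads) to 1878 CPM in clone L (26259 reads), with a median of 756 CPM and an SD of 0.74 on the log2 scale. Clones D and K, at 243 and 276 CPM, stood below the rest, which began at 635 CPM in clone P. SPARC ran from 8194 CPM in clone L to 35045 CPM in clone M, with a median of 19188 CPM and an SD of 0.53, and 14 of its 16 steps exceeded counting error. Clones L and N had the 2 highest SPP1 and DLX3 levels and the 2 lowest SPARC and ALPL levels. SPARC took 0.819% to 3.50% of all reads on genes in a clone, and SPARC with the type I collagen chains COL1A1 and COL1A2 took 4.26% to 18.1%. Such shares move the CPM of all other genes. Library scaling by TMM, whose factors ran from 0.888 to 1.16, was therefore used in edgeR's tests. The correlations, and the RUNX2 and ALPL levels on which slopes were fitted, used CPM without it.

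The genes of mature osteoblasts were at the edge of detection. IBSP had 112 reads in clone M, 6.07 CPM with limits of 5.0 to 7.3, and at most 18 reads in any other clone. Clones J, C and O had 18, 17 and 16 reads, the remaining clones at most 5, and clones D, L, N and Q none. Clone M alone held 54.3% of the summed IBSP CPM of the 17 clones. BGLAP reached 10 reads in 2 clones only, with 17 in M (0.921 CPM) and 15 in J (1.06 CPM), and 5 clones had none. Of the genes that mark osteocytes, the cells buried in bone, DMP1 had no read in any library, MEPE 1 read over all 18, FGF23 6 and SOST 14. PDPN, a membrane glycoprotein of early osteocytes that other cells also make, was named after its values were seen. It ran from 0.072 CPM in clone I to 76.8 CPM in clone P, with 56.5 CPM in Q, 27.6 CPM in N and a median of 2.79 CPM.

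**Figure D1:**
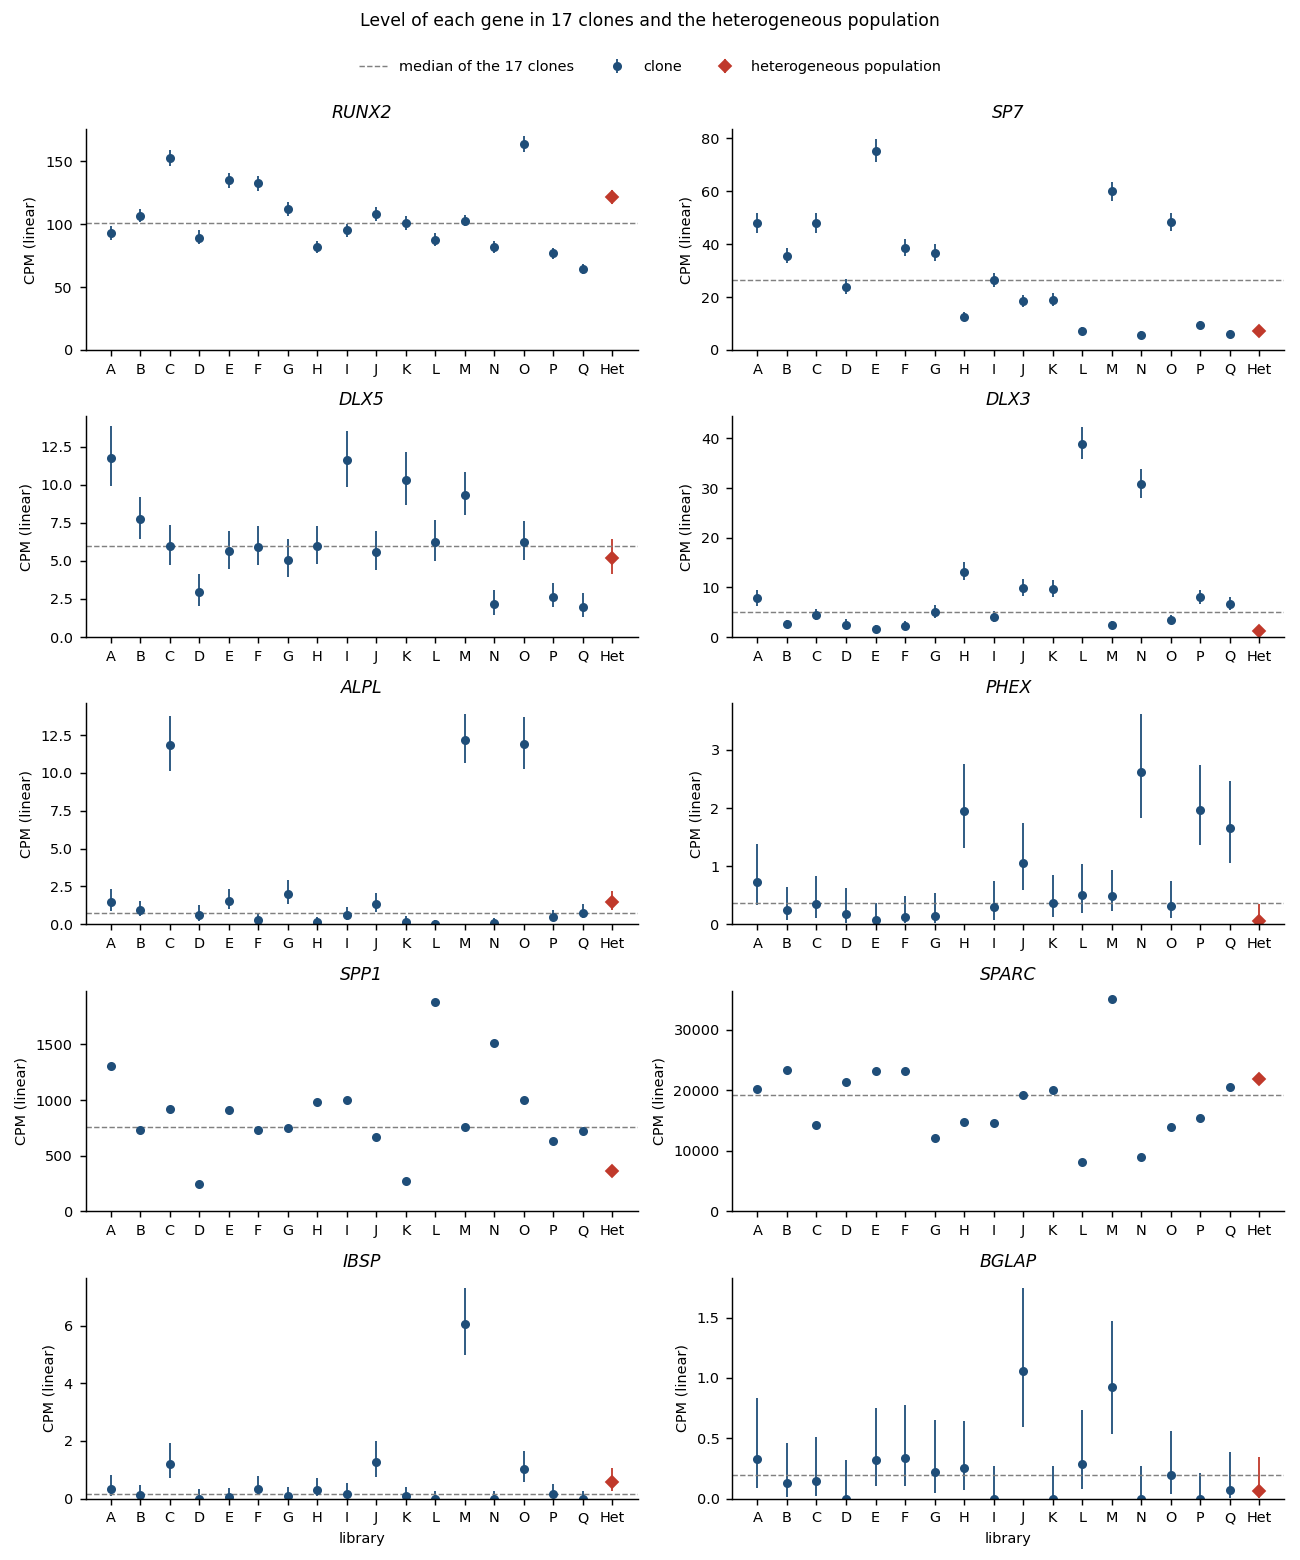
Level of each of the 10 genes in CPM (linear axes from 0) in the 17 clones (blue points) and the heterogeneous population (red diamonds, Het), with bars for the exact Poisson 95% limits and a dashed line at the median of the clones. ALPL stands out in C, M and O, DLX3 in L and N, IBSP in M, and SP7 runs from 5.74 to 75.3 CPM over the clones.

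**Figure D2:**
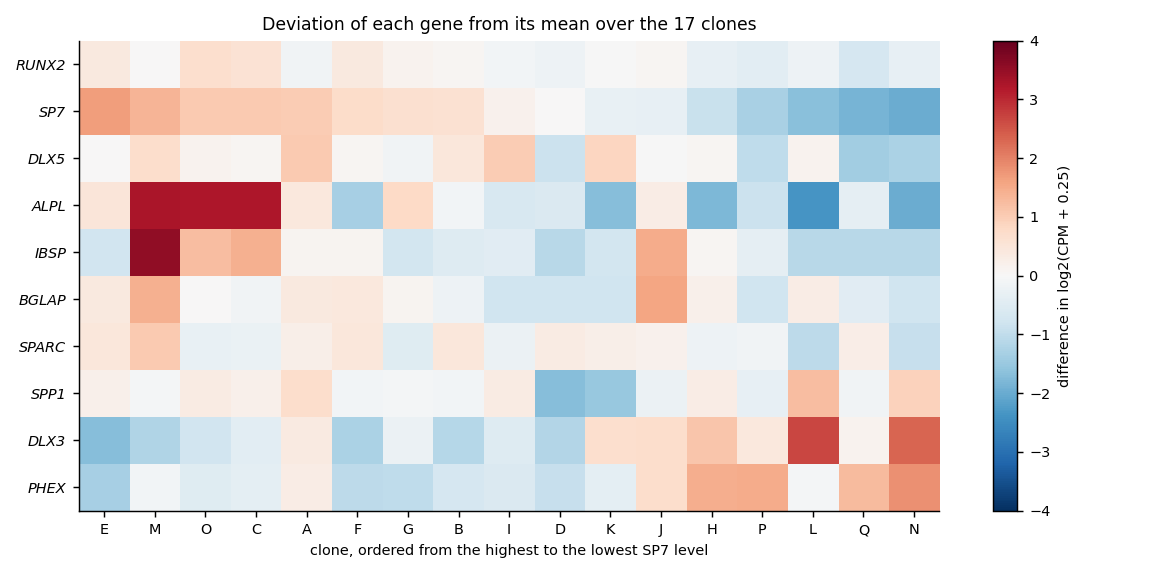
Deviation of each gene from its mean over the 17 clones, as a difference in log2(CPM + 0.25), with the clones ordered from the highest SP7 level (E) to the lowest (N). RUNX2 is mostly above its mean to the left, and DLX3 and PHEX are mostly above theirs to the right.

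To ask which of the genes moved with RUNX2, the factor placed first in the lineage, a slope on the RUNX2 level was fitted for every gene over the 17 clones with the quasi-likelihood test of edgeR. A slope is the change of a gene in log2 units per log2 unit of RUNX2. SP7 was higher in clones with more RUNX2, with a slope of 2.57 (SE 0.64, adjusted p = 0.0289), and PHEX was lower, with a slope of -2.82 (SE 0.68, adjusted p = 0.0266). These were 2 of the 8 other genes tested, since BGLAP had too few reads, beside 6.19% of all 11226 genes (277 higher and 418 lower). ALPL had a slope of 3.67 (SE 1.18, adjusted p = 0.0696) and DLX3 of -2.28 (SE 0.77, adjusted p = 0.0781), past an unadjusted threshold of 0.05 but not the adjusted one. At the unadjusted threshold 4 of the 8 genes passed, beside 25.6% of all genes. DLX5 (slope 0.73), IBSP (2.37), SPARC (0.24) and SPP1 (-0.03) did not pass either threshold.

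The calls for SP7 and PHEX depended on single clones. Without clone P the adjusted p was 0.0625 for SP7 and 0.0571 for PHEX, without clone Q it was 0.108 and 0.073, and without clone E it was 0.0587 for SP7, in edgeR's test. Leaving out H, L or N, which also had little RUNX2, kept both calls. The slopes themselves stayed between 2.33 and 3.03 for SP7 and between -3.24 and -2.53 for PHEX with each clone left out in turn. Without clones C, M and O the slopes were 3.33 (adjusted p = 0.0167) and -4.10 (adjusted p = 0.0249), and without C and O alone 3.54 (adjusted p = 0.0158) and -4.02 (adjusted p = 0.0189). With DESeq2, or with RUNX2 scaled by TMM library sizes, 4 genes were called, ALPL and DLX3 being added.

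Of the genes tested in the other bone lists, 3 of 48 were called with RUNX2, or 6.25%, beside 6.19% of all genes. Of 15 other osteoblast transcription factors tested, 1 was called, ZNF521, a zinc finger factor known to bind RUNX2, with a slope of -1.36 (adjusted p = 0.0451) and levels from 16.1 CPM in F to 141.8 CPM in P. The 2 of this list with the highest CPM, ATF4 and FOSL2, had medians of 532 and 277 CPM and were not called. Of 8 genes of mineral and phosphate handling, 2 were called, both lower with more RUNX2. MGP had a slope of -7.12 (adjusted p = 0.00977) and the phosphate transporter SLC20A2 of -1.27 (adjusted p = 0.0111). The pyrophosphate transporter ANKH and the phosphate transporter SLC20A1, with medians of 269 and 226 CPM, were not called. None of 10 bone matrix and osteocyte genes passed (1 at an unadjusted p under 0.05), COL1A1 and COL1A2 included, nor did any of 15 osteogenic signals and receptors (2 at an unadjusted p under 0.05), among them FGFR1 and BMPR2. Without clones C and O, 10 of the 48 were called, or 20.8%, beside 8.04% of all 11299 genes tested. ZNF521 (slope -2.42, adjusted p = 0.0114), MGP (-8.14, adjusted p = 0.0149) and SLC20A2 (-1.15, adjusted p = 0.0401) were among them, and so were PDPN, LRP6, BMPR2, FGFR2, FGFR3 and BMPR1B.

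Of the genes tested in the stromal, cell cycle and other cell type lists, 4 of 53 were called with RUNX2, or 7.55%, again beside 6.19% of all genes. Their part in the SP7 and PHEX slopes was not tested. Lower with more RUNX2 were COMP, a cartilage matrix protein (1 of 9 chondrocyte markers tested), with a slope of -4.32 (adjusted p = 0.0261), FABP4, the fatty acid binding protein of adipocytes (1 of 8), with -3.38 (adjusted p = 0.0339), and VCAM1, an adhesion molecule (1 of 12 stromal markers), with -6.22 (adjusted p = 0.0173). All 3 were highest in clone N, at 56.3, 85.5 and 3.41 CPM. MRC1, the mannose receptor (1 of 4 macrophage markers tested), was higher, with a slope of 2.59 (adjusted p = 0.00535), at 0.125 to 3.11 CPM in the clones. None of 4 osteoclast, 4 endothelial or 12 cell cycle genes was called, with 0, 1 and 2 at an unadjusted p under 0.05. The median slope of the cell cycle genes was 1.29, beside -0.01 over all genes. The 5 genes with the smallest p were BCKDHB, ADAM19, IGSF9B, TMEM190 and HBEGF, with slopes of 1.60, 1.59, 6.67, 3.39 and 2.96 and the same adjusted p of 0.0032. Without clones C and O, 12 of the 53 list genes were called, or 22.6%, beside 8.04% of all genes. COMP (adjusted p = 0.0463), FABP4 (0.0268), VCAM1 (0.0186) and MRC1 (0.0367) were among them, and the chondrocyte markers rose from 1 to 6 of 9 called, all lower with more RUNX2 (ACAN, SOX9, HAPLN1, COL9A2, COL11A2 and COMP). IGSF9B (slope 3.35, adjusted p = 0.220) and TMEM190 (1.42, adjusted p = 0.143) were no longer called.

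The same fit on the level of ALPL asked which genes moved with the early mineralization enzyme. IBSP was higher in clones with more ALPL, with a slope of 0.96 (SE 0.18, adjusted p = 0.0203), the only one of 8 genes tested to be called, beside 0.606% of 11226 genes (50 higher and 18 lower). SP7 (0.43, adjusted p = 0.127), RUNX2 (0.14, adjusted p = 0.131) and DLX3 (-0.46, adjusted p = 0.0817) passed only the unadjusted threshold. With IBSP they made 4 of 8, beside 17.6% of all genes. The IBSP call was lost without clone C (adjusted p = 0.0584) or clone M (adjusted p = 0.0816). Without clone J, IBSP had too few reads to be tested. Without clones C and O its slope was 1.15 (adjusted p = 0.0631), and 0 of 9 genes and 6 genes in all were called, 0.0524% of 11456. Without clones C, M and O, IBSP again had too few reads to be tested. Of the 7 genes tested there, 0 were called, and 0 of all genes, with 2 of 7 at an unadjusted p under 0.05. That fit therefore cannot show whether the IBSP slope holds apart from those 3 clones. With DESeq2, DLX3 and SP7 were called beside IBSP. No gene of the other bone lists or the cell type lists was called. The unadjusted threshold was passed by 7 of the 12 stromal markers, with a median slope of -0.12 over the list beside -0.0044 over all genes. Smallest in p were NFATC2, a calcium-regulated transcription factor, TMEM190, CD83, the urokinase receptor PLAUR and the sulfotransferase CHST6, with slopes of 0.69, 0.70, 0.49, 0.77 and 0.72. Without clones C and O, only CHST6 of these 5 was still called (slope 0.76, adjusted p = 0.048).

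Levels of the genes were then compared pair by pair over the 17 clones, as Pearson's r of log2(CPM + 0.25) with a two-sided permutation p. This covered 36 pairs of 9 genes, with Benjamini-Hochberg adjustment over the 36, and BGLAP was left out for its few reads. Of the 36, 10 had an adjusted p under 0.05 with r, 8 with Spearman's rho, and 6 by r without clones C, M and O. The share over pairs of all genes was not computed, so these counts have no background beside them. Without C and O alone, the 7 of the 10 called pairs that do not involve ALPL kept their call. So did ALPL with SP7 and ALPL with IBSP, with clone M still apart from the rest in ALPL. The pair of ALPL and RUNX2 lost its call. SP7 rose with RUNX2, at r = 0.781 (permutation p = 0.00024, adjusted 0.00432) and rho = 0.814 (p = 0.00013). Without the clones at the extremes of RUNX2, O and Q, r was 0.739, and without C, M and O it was 0.817.

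DLX3 and PHEX went the other way. SP7 and DLX3 had r = -0.791 (permutation p = 0.00019, adjusted 0.00432) and rho = -0.770 (p = 0.00047), and -0.807 without clones N and Q. SP7 and PHEX had r = -0.754 (permutation p = 0.00073, adjusted 0.00738) and rho = -0.676 (p = 0.00354), and -0.620 without N and Q. RUNX2 and PHEX had r = -0.680 (permutation p = 0.00268, adjusted 0.0129) and rho = -0.706 (p = 0.00212), and -0.678 without O and Q. DLX3 and PHEX rose together, with r = 0.678 (permutation p = 0.00287, adjusted 0.0129) and rho = 0.787 (p = 0.00027), and 0.775 without L and N. Without clone N alone this pair missed the threshold, at r = 0.583 and an adjusted permutation p of 0.0656. With the heterogeneous library as an added point, SP7 with DLX3 and SP7 with PHEX gave r of -0.57 and -0.58, each with an adjusted permutation p of 0.0504.

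The pair of DLX3 and SPARC and that of SP7 and DLX5 were weaker with few clones left out. DLX3 and SPARC had r = -0.739 (permutation p = 0.00082, adjusted 0.00738) and rho = -0.662 (p = 0.00469), and r was -0.799 without C, M and O. Without clones L and N r was -0.439 with a permutation p of 0.102. These clones were the highest in DLX3, and leaving them out narrows its range. The lower r therefore does not show that the relation rested on them. SP7 and DLX5 had r = 0.606 (permutation p = 0.00981, adjusted 0.0353) and rho = 0.466 (p = 0.0612), and without N and Q r was 0.334 with a permutation p of 0.221. Leaving out any of clones A, B, J, M, N, P or Q also took its adjusted p above the threshold, with r no lower than 0.513.

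For ALPL, whose clones fall into separate groups, r is given within the 14 clones other than C, M and O. There it was 0.649 with SP7 (rho = 0.648, permutation p = 0.0137, adjusted 0.0703), 0.350 with RUNX2 (rho = 0.512, permutation p = 0.220) and 0.287 with IBSP (rho = 0.216, permutation p = 0.332). Without E and N, the 2 clones at the extremes of SP7, the value for SP7 was 0.513.

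**Figure D3:**
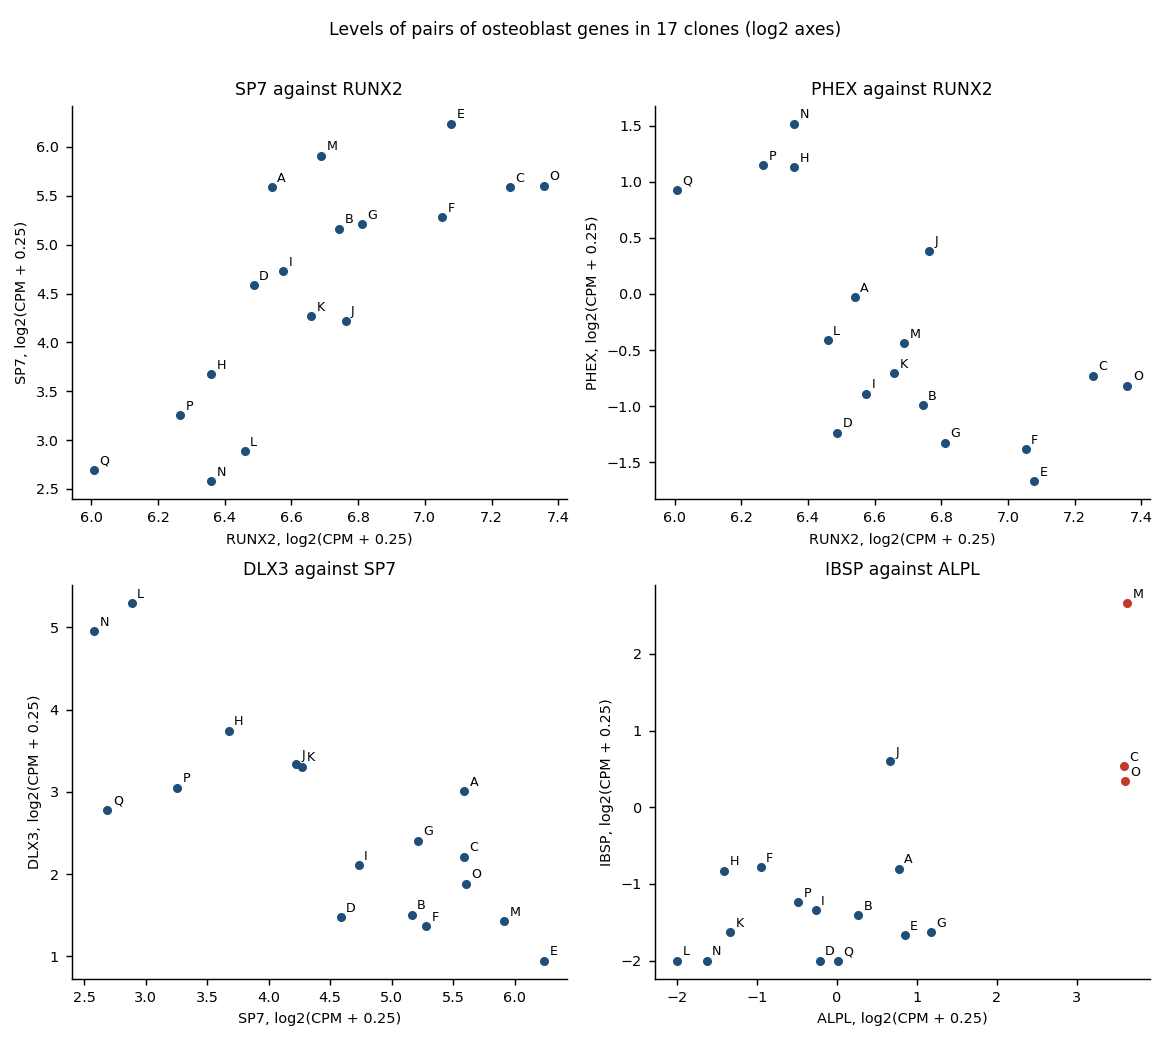
Levels of 4 pairs of genes in the 17 clones, as log2(CPM + 0.25) on both axes, each point a clone. SP7 rises with RUNX2 (r = 0.781), PHEX falls with RUNX2 (r = -0.680), DLX3 falls with SP7 (r = -0.791), and ALPL separates clones C, M and O (red) from the other 14, with IBSP highest in M.

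**Figure D4:**
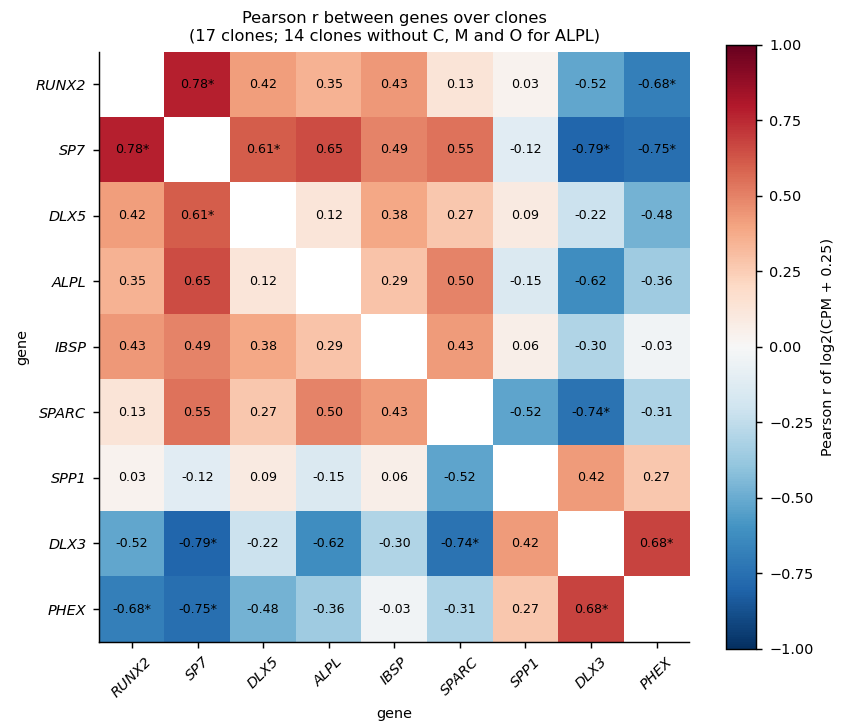
Pearson's r of log2(CPM + 0.25) for the 36 pairs of 9 genes over 17 clones, or over 14 clones for the pairs with ALPL, with a star where the adjusted permutation p is under 0.05. SP7 is positive with RUNX2 and negative with DLX3 and PHEX, while SPP1 has no star with any gene.

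DLX genes lie in the genome as neighbouring pairs, DLX5 beside DLX6 and DLX3 beside DLX4. Genes next to each of the 10 except BGLAP were therefore compared with them, in 12 relations with enough reads. BGLAP was left out for its few reads, and the comparison was chosen after values had been seen. DLX4 followed DLX3 closely, with r = 0.894 (permutation p = 1e-05, the smallest the 100000 resamples can give, adjusted 0.00012) and rho = 0.870 (p = 5e-05), and r was 0.823 without clones L and N. DLX4 was measured by 5 to 51 reads, and clones N and L were again the highest, at 3.70 and 3.50 CPM. DLX6 followed DLX5, with r = 0.733 (permutation p = 0.00111, adjusted 0.00666) and rho = 0.703 (p = 0.00222), and 0.655 without Q and N, on 8 to 34 reads. ATOX1, beside SPARC, had r = 0.591 (permutation p = 0.0116, adjusted 0.0464) and rho = 0.613 (p = 0.00995), and 0.744 without L and N. Without clones C and O the 3 values of r were 0.894, 0.782 and 0.593. The other 9 relations had an adjusted permutation p of at least 0.622. How often neighbouring genes pass over the whole genome was not computed. RUNX2 had r = 0.177 with CDC5L and 0.068 with CLIC5, and SP7 had r = -0.323 with SP1, the family member beside it.

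**Figure D5:**
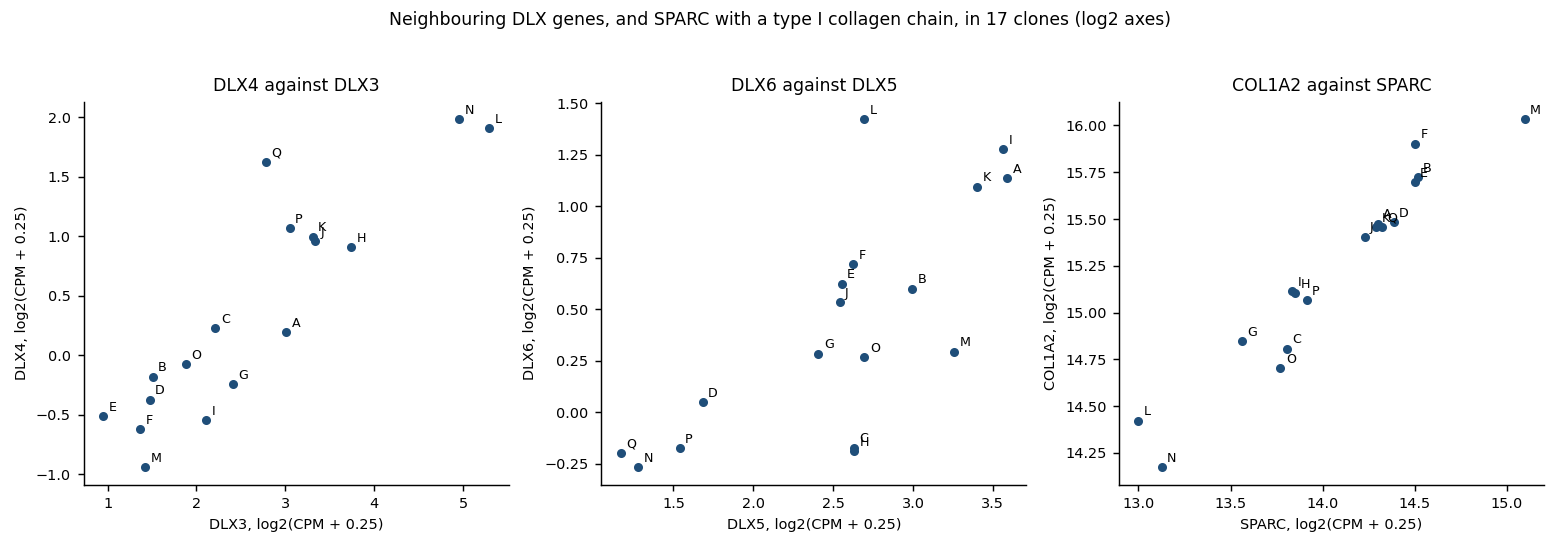
Levels of DLX4 against DLX3, of DLX6 against DLX5 and of COL1A2 against SPARC in the 17 clones, as log2(CPM + 0.25) on both axes, each point a clone. The points rise together in all 3 plots, with r of 0.894, 0.733 and 0.965.

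The genes most like each of the others in pattern were found by Pearson's r over the 17 clones among 11476 genes, as a description, since points share library depth and composition and the highest of many values is always high. SPARC was closest to COL1A2, the alpha-2 chain of type I collagen (r = 0.965), then IGDCC4 (0.932) and the secreted ligand WNT9A (0.930), all highest in clone M. PKP4, a junction protein, was its opposite (-0.945). SP7 was closest to TPST2, a tyrosine sulfotransferase (0.942), CRISPLD2 (0.904) and RNF150 (0.874). METTL14, a subunit of the RNA m6A methyltransferase, was lowest of all with SP7 (r = -0.959), over a narrow range of 13.8 CPM in clone E to 25.7 CPM in clone N. DLX3 was closest to LTBP3, a latent TGFβ binding protein (0.922, from 102.3 CPM in E to 679 CPM in N), ZMYND17 (0.908) and LRP11 (0.903), with the receptor TYRO3 opposite (-0.889).

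PHEX was closest to TBX15, a limb mesenchyme transcription factor (0.946, from 11.5 CPM in G to 49.5 CPM in N), PLCD4 (0.937) and C21H15orf27 (0.937), and ATF6, a sensor of endoplasmic reticulum stress, was lowest (-0.900). RUNX2 was closest to PSTPIP1 (0.903, at most 2.35 CPM), UBASH3B (0.874) and PKIB (0.870), with ZNF790 opposite (-0.871). ALPL, with its 2 groups of clones, was closest to CD83, CHST6 and JARID2, which were highest in clones O, C and O, and its opposite, BCO2, was lowest in C. DLX5 was closest to BCAP31 (0.861), COTL1 (0.827) and C15H11orf31 (0.825), with LDHD opposite (-0.851). SPP1 was closest to REXO2 (0.887), MAGED1 (0.827) and ASPH (0.798), with the histone deacetylase HDAC11 opposite (-0.904), highest in clone D at 13.9 CPM. For IBSP, which clone M dominates, ACSL3 (0.825), F13A1 (0.792) and FRMPD4 (0.776) were also highest in M, and HDAC9 (-0.844) was lowest there. Without clones C and O, all 36 of these relations kept their sign, with r of at least 0.771 in size.

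Each clone was also set against the other 16 to ask whether any gene marked a clone beyond the spread of the rest. The filter kept genes with enough reads in most clones. Genes well covered in few clones only, such as ALPL (225 reads in M) and IBSP (112 reads in M), were dropped by it. The filtered fits therefore cannot show whether those genes marked a clone. None of the 10 genes was called in any clone, beside 0.0472% of all 175967 gene tests. Only 6 of the 10 had enough reads (ALPL, PHEX, IBSP and BGLAP did not), and at an unadjusted p under 0.05 they gave 7 of 102 tests, beside 4.38% of all tests. These were lower SPP1 in D (log2 difference -1.87, SE 0.65) and K (-1.74, SE 0.66), higher DLX3 in L (2.26, SE 0.83) and N (1.93, SE 0.91), lower SPARC in L (-1.46, SE 0.65), higher SPARC in M (1.17, SE 0.49) and lower DLX5 in Q (-1.75, SE 0.83), with adjusted p of at least 0.288 in edgeR's test. With all genes kept, IBSP in M was 4.37 higher (SE 1.05, unadjusted p = 0.000552 in edgeR's test, adjusted p = 0.345). DESeq2 called 0 of them.

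In the heterogeneous population, grown without cloning, none of the 10 genes was called against the 17 clones, with 0 at an unadjusted p under 0.05 in edgeR and 1 (DLX3) in DESeq2, which called 0 as well. Over all genes, 1.22% of 11878 were called (144 higher and 1 lower). PHEX (0.062 CPM, 1 read) and DLX3 (1.18 CPM, 19 reads) lay below every clone, but the limits of both overlapped those of clone E. For PHEX, clone E also had 1 read (0.065 CPM), so only library size set the order. With that tie, PHEX and DLX3 were 2 of 10 genes, beside 10.9% of all genes below every clone. Their log2 differences were -3.36 (SE 2.03, adjusted p = 0.698 in edgeR's test) and -2.77 (SE 1.62, adjusted p = 0.694). SP7 stood at 7.21 CPM, below 14 of the 17 clones, with a difference of -2.05 (SE 1.35, adjusted p = 0.719 in edgeR's test), and SPP1 at 360 CPM, below 15. RUNX2 at 121.7 CPM and SPARC at 21941 CPM each lay above 13 clones, and ALPL at 1.49 CPM above 12.

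Macrophage markers were higher in this library than in the clones, and some osteoclast markers were. All 16 macrophage markers were above every clone, summing to 175.3 CPM against 3.09 to 9.76 CPM in the clones, and 12 of 13 tested were called higher, led by CD68 (38.5 CPM, against at most 3.19 CPM in a clone), MSR1 (19.7 against at most 0.799 CPM), CD163 (41.4 against at most 0.871 CPM) and FCER1G (8.95 against at most 1.43 CPM). Of 5 osteoclast markers tested, 2 were called, MMP9 (653 against at most 16.2 CPM) and ACP5 (7.21 against at most 2.33 CPM), and 4 of the 9 counted lay above every clone. CTSK, the cathepsin of bone resorption, stood at 2837 CPM, below the 3720 CPM of clone D. NFATC1 stood at 44.1 CPM, below its median of 69.8 CPM, and CALCR had no read. Some markers above every clone lay near the floor. Over all 18 libraries C1QB had 1 read, LYZ 4 and DCSTAMP 4, and ATP6V0D2 stood at 0.435 CPM in this library. The share of all genes above every clone was not computed. The 12 cell cycle genes summed to 97.4 CPM, below the 112 to 2339 CPM of the clones. The part of these markers in the levels of the 10 genes in this library was not tested.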

How the data were processed

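Poly-adenylated RNA was sequenced by the authors with 50-bp single-end reads from a kit that does not mark strand. Reads were aligned to bosTau7 with STAR 2.3.0e and counted with HTSeq on the RefSeq genes in annotation release 103. The deposited values are raw counts, 1 per gene and library, and were not normalized by the authors. The table for the whole series was not used here, and 5 tally lines per library that name no gene were left out. Reads that HTSeq assigned to no counted feature were 18.8% to 26.8%. The 10 genes and all marker lists were chosen with earlier results of these data known, so they give no independent support.

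CPM was computed from the reads on genes, and 0.25 was added before taking log2. Count tests used edgeR 4.0.16 (TMM, filterByExpr, quasi-likelihood, Benjamini-Hochberg over all genes tested, threshold 0.05) in R 4.3.3, and DESeq2 1.42.0 as an alternative. A lone library is assumed to vary as the other clones do. Correlations used 100000 permutations in Python 3.11.15 with scipy 1.17.1, for genes with at least 10 reads in at least 3 clones. Scripts were tested on simulated data. Alternatives were the scaling, filter, tool, pseudocount, covariate scale, rank correlation, the 18 libraries, and each clone left out. Leaving out clones C and O, or C, M and O, was added after the values were seen, and so were the names of list genes called only then, of PDPN and of the osteoclast genes not called. Named genes were the 10, the called genes of other lists (at most 4 a list and comparison) with 2 of high CPM, the 3 most and 1 least correlated genes, and the 5 smallest p of each slope. DLX4 and other neighbours were named after their values were seen. Neighbours came from the RefSeq table of ARS-UCD2.0, another assembly than the counts, in which RUNX2 overlaps SUPT3H, so their reads may not be separable without strand. Coordinates and sequences were not used here.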

Additional observations from a re-analysis of the deposited data

How the results depend on the processing

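Of the 1157 recomputed values, 1075 counted as unchanged. For single tests and correlations this meant the same sign and the same side of the threshold, values not called in either setting included. For counts and SDs it meant a change of at most 1.5 times. DESeq2 called 89 genes in the heterogeneous library in place of 145, 1293 with RUNX2 in place of 695 (4 of the 10 genes in place of 2) and 409 with ALPL in place of 68 (3 in place of 1), and it turned the IBSP difference in the heterogeneous library to 0.90. RUNX2 scaled by TMM sizes also gave 4. With each clone left out in turn, 0 to 3 of the 10 genes and 85 to 997 genes in all were called with RUNX2 (lowest without Q, highest without L), and 0 to 3 and 9 to 394 with ALPL (lowest without C, highest without M). The RUNX2 count moved by over 1.5 times without C (244), E (449), N (383), O (200), P (299) or Q (85), and the ALPL count without C (9), O (10), K (40), N (42), F (105), L (201) or M (394). Those ranges crossed 0 for 3 small values, the IBSP difference in the heterogeneous library (-0.34 to 0.87) and the SPP1 slopes on RUNX2 (-0.16 to 0.15) and on ALPL (-0.057 to 0.043). Without C and O, 0 of the 10 genes and 6 genes in all were called with ALPL. Without C, M and O, 0 of the 7 genes tested (IBSP not among them) and 0 genes in all were called with ALPL. Pairs called there were 6 in place of 10. A pseudocount of 1 lowered the SD of IBSP to 0.72, of BGLAP to 0.31 and of PHEX to 0.56. The causes were not tested. Depth limits ALPL, PHEX, IBSP and BGLAP, with medians of 11, 5, 2 and 3 reads a clone. No paired analysis was possible because no replicate number is shared between groups.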

Other observations

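Most of the listed ligands and receptors of the bone lineage were read in most clones, but not all. TNFSF11, TNFRSF11B, IGF1 and LEPR had a median of 0 CPM, with 2, 23, 13 and 8 reads over all 18 libraries. The share of all genes with a median above 1 CPM was not computed. Of 19 osteogenic signals and receptors, 14 had a median above 1 CPM over the 17 clones, and their summed level ran from 561 CPM in clone I to 958 CPM in clone P. FGFR1, a fibroblast growth factor receptor, had a median of 370 CPM, the BMP receptor BMPR2 of 74.0 CPM, and VDR, the vitamin D receptor, ran from 13.3 CPM in clone N to 130.6 CPM in clone J. Of 17 other osteoblast transcription factors, 14 had a median above 1 CPM, with a narrow summed range of 1103 to 1330 CPM. In the mineral and phosphate list the fetuin gene AHSG had no read in any library.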
